A study of Mus musculus with 24 samples.

Results

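The comparison described here is the response to interleukin 4 (IL4) of macrophages that lack CITED2: the 3 KO IL4 libraries were set against the 3 KO control libraries, 6 of the 24 RNA sequencing libraries of the series. All cells were bone marrow-derived macrophages (BMDMs), which are cultured from precursors in the marrow, of C57BL/6 mice at postnatal week 10. KO IL4 cells lacked CITED2 and received IL4, and KO control cells lacked CITED2 and are labelled control. WT IL4 and WT control cells, of wild type (WT) genotype with and without IL4, formed the pair it was set beside, and the series also holds both genotypes with lipopolysaccharide (LPS) or interferon gamma (IFNg). The labels give neither the way in which the gene was deleted, nor the dose and duration of IL4, nor whether the 3 libraries of a group stem from separate mice or dishes. The p-values therefore measure the spread between these samples, which may be technical. Values are normalised read counts, that is, reads scaled by 1 factor per library, and they are not divided by gene length. Of 43629 genes in the table, 18637 had a value of at least 1 in 3 or more libraries and were tested.

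IL4 binds a receptor chain shared with interleukin 13, activates Janus kinases and phosphorylates the transcription factor STAT6, which drives the programme called alternative activation in macrophages: arginase, chitinase-like proteins, the mannose receptor, selected chemokines and the SOCS family of feedback inhibitors. Type I interferons and IFNg instead signal through other members of the STAT family, STAT2 among them for type I, and induce antiviral genes, guanylate-binding proteins and antigen presentation. CITED2 has no DNA-binding domain of its own. It binds CBP and p300, 2 coactivators of transcription, and thereby competes with other factors, among them HIF-1 and STAT2, for the same binding surface.

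Before the values, 4 promoters, of a pair of alternative activation genes and a pair of interferon-inducible genes, show the motifs searched. The windows come from the RefSeq annotation of GRCm38.p6, run from 250 bases before to 50 bases after the gene start, and read 5′ to 3′ on the strand of the gene. Capitals mark TTCNNNNGAA, the spacing preferred by STAT6, in Retnla, TTCNNNGAA, a spacing bound by several STAT factors, in Chil3, and GAAANNGAAA, the core of the interferon-stimulated response element, on either strand in Ifit1 and Isg15. No match to one motif overlapped a match to another in these windows.
Retnla, chr16:48842359-48842658, plus strand: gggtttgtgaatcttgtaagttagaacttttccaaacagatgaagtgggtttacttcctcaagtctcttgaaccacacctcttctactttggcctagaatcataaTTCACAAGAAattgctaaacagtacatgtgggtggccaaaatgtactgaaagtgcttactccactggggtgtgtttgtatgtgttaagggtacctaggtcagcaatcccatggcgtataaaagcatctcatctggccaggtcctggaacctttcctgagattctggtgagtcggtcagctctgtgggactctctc
Chil3, chr3:106167515-106167814, minus strand: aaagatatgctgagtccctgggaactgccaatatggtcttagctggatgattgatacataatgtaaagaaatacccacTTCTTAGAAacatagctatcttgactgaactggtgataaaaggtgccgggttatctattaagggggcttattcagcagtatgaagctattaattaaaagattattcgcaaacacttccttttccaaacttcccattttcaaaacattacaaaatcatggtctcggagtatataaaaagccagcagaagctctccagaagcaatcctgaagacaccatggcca
Ifit1, chr19:34640639-34640938, plus strand: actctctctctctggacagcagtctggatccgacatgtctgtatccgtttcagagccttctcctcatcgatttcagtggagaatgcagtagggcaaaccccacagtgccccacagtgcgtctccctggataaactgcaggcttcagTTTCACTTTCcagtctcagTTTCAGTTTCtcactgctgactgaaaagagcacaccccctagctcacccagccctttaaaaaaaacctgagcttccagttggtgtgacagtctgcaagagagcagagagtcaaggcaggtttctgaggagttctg
Isg15, chr4:156200769-156201068, minus strand: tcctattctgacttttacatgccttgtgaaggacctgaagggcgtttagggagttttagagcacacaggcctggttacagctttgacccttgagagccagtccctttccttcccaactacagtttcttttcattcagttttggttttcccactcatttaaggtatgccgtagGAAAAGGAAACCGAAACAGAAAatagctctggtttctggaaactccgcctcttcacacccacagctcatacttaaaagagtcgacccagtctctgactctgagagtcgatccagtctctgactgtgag
In Retnla the match began 145 bases before the gene start, and in Chil3 172 bases before it. Ifit1 held 2 interferon element matches, 104 and 85 bases before the start, on the strand opposite to the gene. Isg15 held 3 overlapping ones, at 78, 72 and 66 bases. Among the promoter windows of the alternative activation markers, 7 of 29 (24.1%) held TTCNNNNGAA, against 6.95% of all 32851 windows, and 1 held GAAANNGAAA. Among those of the type I interferon list, 13 of 29 (44.8%) held GAAANNGAAA, against 3.44% of all windows, and 6 held TTCNNNNGAA. The windows matched 22 of 35 alternative activation genes and 25 of 36 interferon genes. TTCNNNGAA stood in 4 of 29 windows (13.8%) of the first list and in 7 of 29 (24.1%) of the second, against 8.30% of all windows. All 3 motifs were searched on both strands, and a match is only a description of these letters.

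Cited2 was first read as a check of the labels. Its normalised read count was 12.4, 14.3 and 8.52 in the KO IL4 libraries and 20.2, 39.7 and 23.7 in the KO control libraries, against 1117, 1207 and 1120.2 in WT IL4 and 2298, 2179 and 2144 in WT control libraries. Every KO library lay far below every WT library, and among KO libraries those with IL4 were the lower ones. The residual KO signal fell with IL4 by 1.15 on the log2 scale (adjusted p = 0.013), a call that rests on 51 reads in KO IL4 and 98 reads in KO control and was lost in 3 of 18 alternative analyses: without KO control replicate 2 (-0.87, adjusted p = 0.11), without KO IL4 replicate 3 (-0.95, adjusted p = 0.079) and with the compared libraries alone (adjusted p = 0.059). In WT cells the log2 change of Cited2 was -0.94 (adjusted p = 0.0497), on 5235 reads in WT IL4 and 8519 in WT control libraries, whose values did not overlap. Its SE of 0.34 was the same as in KO, since the spread of a gene was estimated over all 24 libraries, the low KO libraries included.

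The cells carried the macrophage markers in every library. Csf1r, the receptor for the macrophage growth factor, averaged 64555 ± 2333 in KO IL4 and 41605 ± 2070.0 in KO control libraries (SD, n = 3 each), and Emr1, which encodes F4/80, averaged 76546 ± 4293 in KO IL4 and 30485 ± 696 in KO control libraries. Of 8 macrophage markers 5 rose with IL4 and none fell, against 12.6% and 10.5% of all genes tested. In WT 4 of these markers rose and 2 fell. A longer list of 29 macrophage identity genes, given further below, had 13 higher and 8 lower in KO. The summed value of 10 neutrophil and granulocyte precursor markers ran between 274 and 328 in KO IL4 libraries and between 1158 and 1279 in KO control libraries, and 4 of them fell (Ngp, Ltf, S100a9 and S100a8), while Ly6g failed the filter on low values. Fewer such cells and less RNA per cell cannot be told apart in bulk RNA. No marker of dendritic cells, T and NK cells, mast cells or erythroid cells passed the limma test over all libraries, and the summed value of each of these lists was at most 66.8 in all 6 libraries. The B cell gene Ighm fell, with a summed list value of 67.0 to 84.1 in KO IL4 and 120.1 to 128 in KO control libraries. Siglecf of the eosinophil list rose (summed value 886 to 957 in KO IL4 and 494 to 521 in KO control libraries), and Col1a2 and Dcn of 6 fibroblast genes rose (summed value 352 to 490.0 in KO IL4 and 233 to 302 in KO control libraries). Among 5 monocyte genes F10 and Vcan rose and Ccr2 fell, with a median log2 change of -0.36. Their summed value, 3743 to 4147 in KO IL4 and 999 to 1053 in KO control libraries, was mostly F10. That gene alone had 3574 to 3987 in KO IL4 and 760 to 823 in KO control libraries, while Ccr2 averaged 103 in KO IL4 and 184 in KO control libraries. In other analyses some markers gained a call: Zbtb46 (log2 1.55 to 1.83), Clec9a (up to 1.22), Nkg7 (1.41 to 1.77), Cd8a (1.70, edgeR alone) and Lum (1.38, the compared libraries alone) upward, and Prg2 (-1.72 to -1.53), Ly6c2 (-1.68 to -1.38), Mcpt8 (-4.50 to -1.35) and Klf1 (-1.26, library weights alone) downward. The log2 rise of Dcn, 0.74, was not called with the compared libraries alone or without KO control replicate 3 (0.48), KO IL4 replicate 1 (0.60) or KO IL4 replicate 3 (0.76), and that of Vcan, 0.53, with the compared libraries alone or without KO control replicate 1 (0.40) or KO IL4 replicate 3 (0.39). The part of these cells in the results below was not tested.

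The 6 libraries held 19041270 to 35103064 reads, inside the range of the series (1478507 to 73409343, median 29551522). A single read equalled a value of 0.591 to 1.06, so genes at values of a few units rest on a few reads. The shallowest of the series, KO LPS replicate 1, entered only the shared estimate of the spread. Of the WT control libraries, replicate 3 held 7818719 reads, against 35227110 in replicate 1 and 29745002 in replicate 2. A single read there equalled a value of 2.44. That library enters every WT change and every difference between the genotypes given below.

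Among the gene lists, which were chosen with earlier results of these data known, 2 had the largest median rises with IL4 in CITED2-deficient macrophages. Of 35 alternative activation genes, 30 rose in KO and 30 in WT (median log2 changes 3.03 and 3.72). Of 36 type I interferon genes, 35 rose in KO and 25 in WT (medians 2.14 and 0.51). Over all genes tested, 12.6% rose in KO and 10.6% in WT. The interferon-gamma and MHC class II genes came next, 32 of 35 higher in KO and 26 in WT (medians 1.87 and 1.05). The chemokines followed, 16 of 22 higher in KO and 14 in WT (medians 1.09 and 1.62). Genes of oxidative phosphorylation, cholesterol synthesis and the endoplasmic reticulum rose by smaller steps, and lipid handling genes fell in part.

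With IL4, 2351 genes were higher (12.6% of the genes tested) and 1965 lower (10.5%) in KO macrophages at an adjusted p below 0.05 (limma, Benjamini-Hochberg), 4316 in all (23.2%). Of these, 696 rose and 404 fell by at least 1 on the fitted scale, log2 of the value plus 1. The 3 KO IL4 and 3 KO control values did not overlap in 40.2% of the genes tested. The WT pair, which shares no library with the KO pair, gave 3749 calls (20.1%), 1967 higher (10.6%) and 1782 lower (9.56%). Both genotypes called 1510 genes higher, 64.2% of the KO list and 76.8% of the WT list, and 1218 lower, 62.0% of the KO list and 68.4% of the WT list. Only 28 genes higher in KO were called lower in WT, and 9 genes lower in KO were called higher in WT. Across the 10337 genes with a mean of at least 50, the log2 changes of the 2 genotypes had a Pearson correlation of 0.869, given as a description since genes are not independent. The difference between the responses, tested as the interaction of genotype with IL4, was called for 672 genes (3.61%): 457 (2.45%) changed more upward in KO and 215 (1.15%) more downward. A gene called in KO and not in WT is therefore not shown to differ. Of 841 genes called higher in KO without the same call in WT, the difference itself was called in 167. Every list count below is to be read beside these shares over all genes. For the KO response they are 12.6% higher and 10.5% lower, and for the difference 2.45% upward and 1.15% downward. The lists were chosen with earlier results of these data known, so their counts are descriptions.

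**Figure D1:**
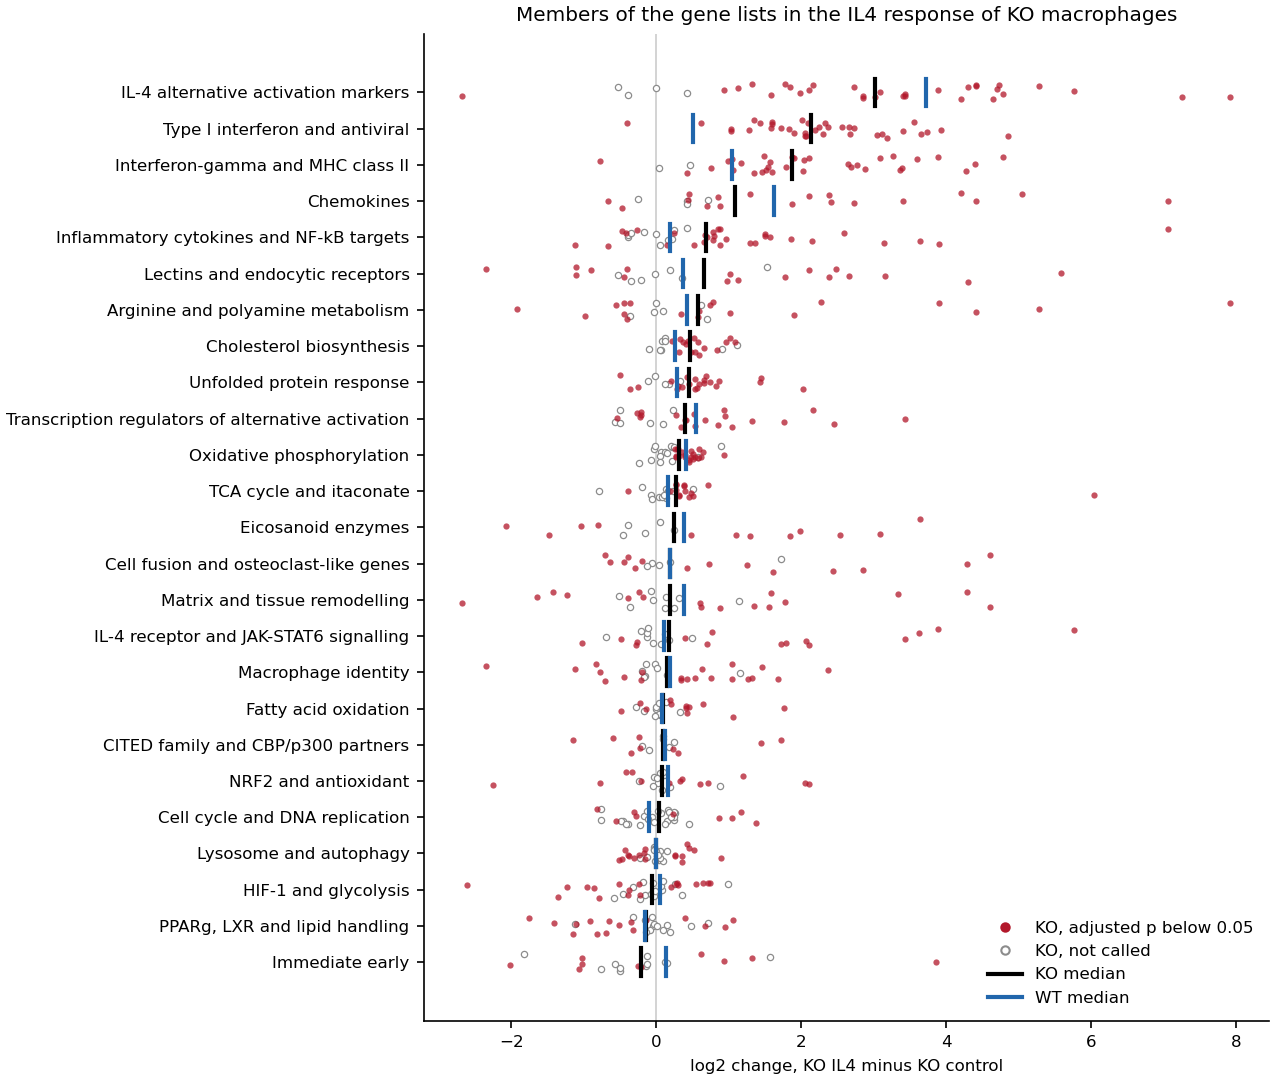
Log2 change with IL4 in KO macrophages (x axis) for each tested member of 25 gene lists (y axis); filled points passed an adjusted p below 0.05 and open points did not. Black bars give the list's median in KO and blue bars that in WT: the medians of the alternative activation markers were 3.03 in KO and 3.72 in WT, those of the type I interferon genes 2.14 in KO and 0.51 in WT, and all other lists except the IFNg and MHC class II genes (1.87) and the chemokines (1.09) had KO medians within 1 unit of 0.

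The 12 largest rises joined surface receptors, secreted immune proteins and enzymes. Apol7c, of the apolipoprotein L family, had 1298, 1181 and 1266 in KO IL4 and 1.84, 0 and 0 in KO control libraries. With 3 reads in the control group, its ratio was 1551 (95% interval 530 to 7523, counting error only). Arg1 came next and is described with its pathway. Tarm1, an activating receptor of myeloid cells, had 273, 247 and 267 with IL4 and 0.613, 0 and 1.75 without (ratio 326, 95% interval 111 to 1583, from 3 control reads). Pdcd1lg2, which encodes the checkpoint ligand PD-L2, had 844, 746 and 806 with IL4 and 6.13, 6.27 and 1.75 without. In each of these genes the lowest IL4 library stood far above the highest control library, and the selection required that they not overlap. Apol7c belongs to a family of close copies, so its reads may be split.

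Ccl5, C3 and Irg1 rested on more control reads. The chemokine gene Ccl5 had 5626, 7640.1 and 6366 in KO IL4 libraries, against 37.98, 50.2 and 56.1 in KO control libraries, a log2 rise of 7.07 ± 0.16 (adjusted p = 1.3e-20). The complement gene C3 had 39566, 39637 and 40375 with IL4, against 759.7, 729.8 and 802 (5.71 ± 0.06, adjusted p = 2.0e-26). Irg1, which makes itaconate from a citric acid cycle intermediate, had 8779, 8386 and 8484 with IL4, against 112, 116 and 167 (6.03 ± 0.20, adjusted p = 1.7e-17). In all 3 genes the groups were wide apart, and the selection required that they not overlap. The other large rises were the cystatin gene Cst7 (log2 6.67), the Ras exchange factor gene Rasgrp1 (6.62), the nonclassical MHC gene H2-M2 (6.55), the cytokine-signalling inhibitor Cish (5.76) and the formyl peptide receptor gene Fpr2 (5.54). Fpr2 was 119 in KO IL4 and 1.75 in KO control libraries, and its rise was larger in KO than in WT by 2.47 (adjusted p = 2.4e-05). Ccl5 also rose more in KO than in WT, by 0.83, and C3 by 0.33. No difference was called for the other 9 of these 12 genes.

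The 12 largest falls were in genes of varied function. Zbtb16, a transcription factor gene of lymphoid and myeloid development, had 2.36, 3.25 and 0 in KO IL4 and 49.01, 57.5 and 47.4 in KO control libraries, a log2 change of -4.42 ± 0.54 (adjusted p = 6.4e-07). Dkk2, a secreted regulator of Wnt signalling, had 76.2, 86.5 and 93.7 with IL4, against 979.6, 916 and 995 without (-3.48 ± 0.41, adjusted p = 3.6e-07). Pcp4l1 had 177, 193 and 204 with IL4, against 1963, 2135 and 2037 (-3.41 ± 0.09). In all 3 genes every IL4 library lay below every control library, which the selection required. Hpgd, the enzyme that inactivates prostaglandins, fell by 3.37, the chemokine receptor gene Cxcr3 by 3.23, the laminin gene Lama3 by 3.56, Fcrl1 by 2.73, the adhesion gene L1cam by 2.71 and the RNA-binding protein gene Samd4 by 2.69. Lrig1, a regulator of growth factor receptors, changed by -3.10. The granule genes Ngp and Ltf fell by 3.17 and 2.70, beside the lower neutrophil marker sum given above. Among the 12, the fall was larger in KO than in WT for Pcp4l1 (difference -0.53, adjusted p = 0.014) and Ltf (-1.36, adjusted p = 0.0026), and no difference was called for the other 10.

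**Figure D2:**
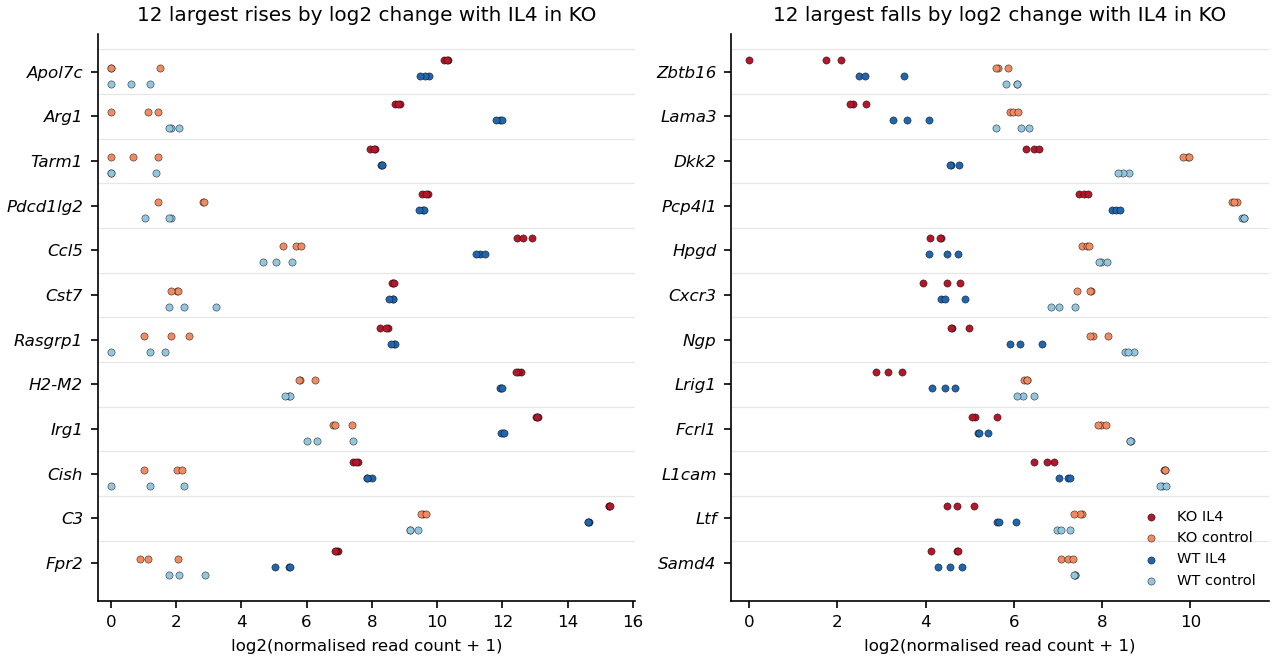
Log2 of the normalised read count plus 1 (x axis) of the 12 genes that rose most (left) and the 12 that fell most (right) with IL4 in KO macrophages; each point is 1 library of KO IL4, KO control, WT IL4 or WT control cells. The KO IL4 and KO control points do not overlap in any of the 24 genes, which the selection required, and for Arg1 the WT IL4 points lie above the KO IL4 points.

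The alternative activation markers rose in macrophages that lack CITED2. Of 35 measured markers 30 rose and 1 fell, against 12.6% and 10.5% of all genes tested, and the median log2 change was 3.03, against 0.00 over all genes (3.08 with the 4 genes that had no control read set at their lower bound). In WT cells 30 of 35 rose as well, with a median of 3.72. Arg1, arginase 1, the enzyme that turns arginine into ornithine (ENSMUSG00000019987; chromosome 10, 24915221 to 24927484, minus strand), had 468, 420.2 and 441 in KO IL4 libraries, against 1.23, 0 and 1.75 in KO control libraries. In WT libraries it had 3908, 4078 and 3539 with IL4 and 3.23, 2.58 and 2.44 without. Arg1 was near 0 without IL4 in both genotypes and high with it, and the KO IL4 level was 11.5% of the WT IL4 level. The log2 rises were 7.92 ± 0.47 in KO and 10.00 ± 0.47 in WT (SE of the fit), and their difference of -2.08 ± 0.67 was not called (adjusted p = 0.1).

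Retnla, the secreted protein FIZZ1 (ENSMUSG00000061100; chromosome 16, 48842551 to 48844461, plus strand), had 20.1, 26.02 and 15.97 in KO IL4 libraries and no read in KO control libraries, at least 26.5-fold higher against a floor of 3 reads summed over the controls. In WT it had 198, 215 and 209 with IL4 and no read without it, so the KO IL4 level was 9.98% of WT. The difference of the 2 responses, -3.29 (adjusted p = 6.8e-05), shifts with the value added before the logarithm because both control groups were at 0, and the count test of edgeR gave it an adjusted p of 0.9999. Chil3, the chitinase-like protein Ym1 (ENSMUSG00000040809; chromosome 3, 106147554 to 106167564, minus strand), had 10326, 9095 and 8846 with IL4, against 332, 401 and 353 without, and rose by 4.70 ± 0.10 in KO and 4.97 ± 0.10 in WT (difference -0.27, adjusted p = 0.48). Chil3 has a close copy, Chil4, so its reads may be split. Mrc1, the mannose receptor (ENSMUSG00000026712; chromosome 2, 14229392 to 14332057, plus strand), had 22899, 18967 and 20126 with IL4, against 4727, 4428 and 5194, and rose by 2.11 ± 0.08 in KO and 1.95 ± 0.08 in WT (difference 0.16, adjusted p = 0.67). All 4 markers kept their 3 IL4 libraries above their 3 control libraries.

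Of the other markers, the cationic amino acid transporter gene Slc7a2 rose by 5.28, the vascular growth factor receptor gene Flt1 by 4.73, the amino acid oxidase gene Il4i1 by 4.65, the lectin gene Mgl2 by 4.30 and the transcription factor gene Irf4 by 3.43. The difference between the responses was called for 10 of the 35 markers, against 3.61% of all genes tested. It was downward in KO for 8: Retnla, Rnase2a, Flt1 (-1.51), Myc (-1.31), Egr2 (-0.92), Fn1 (-0.75), Itgax (-0.66) and Clec7a (-0.38). Egr2, a zinc finger transcription factor gene, had 4743, 4773 and 4829.5 in KO IL4 and 2587, 2509 and 2426 in KO control libraries, against 4753, 4485 and 4662 in WT IL4 and 1274, 1294 and 1292 in WT control libraries. Its IL4 libraries overlapped between the genotypes, while the KO control libraries lay above the WT control libraries. The difference was upward in KO for Ptgs1 (0.72) and for F13a1, a coagulation factor gene that fell in both genotypes (-2.67 in KO and -3.68 in WT). The 4 members not called in KO were Matk (0.42), Cd200r1 (-0.00), Alox15 (-0.38) and Clec10a (-0.52).

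**Figure D3:**
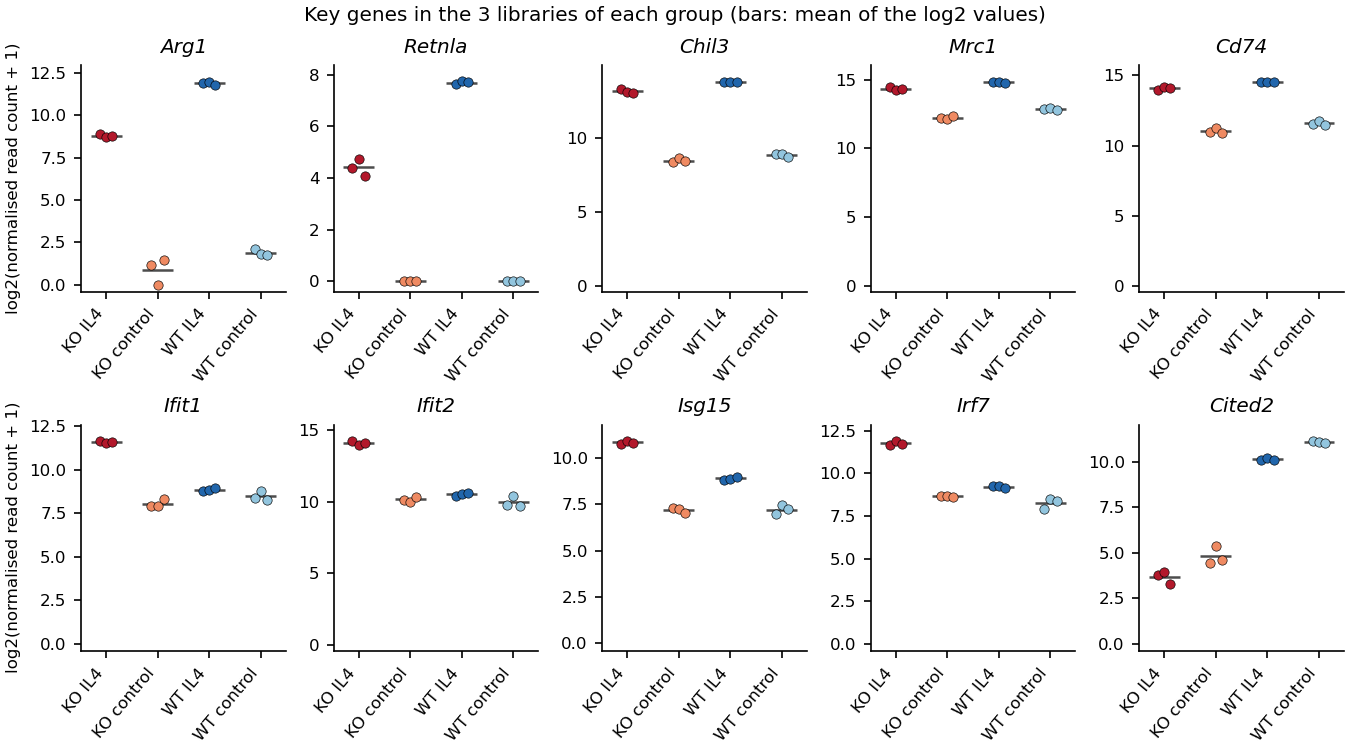
Log2 of the normalised read count plus 1 (y axis) in each of the 3 libraries of the KO IL4, KO control, WT IL4 and WT control groups (x axis), with bars at the mean of the log2 values. Arg1, Retnla, Chil3 and Mrc1 rise with IL4 in both genotypes, as does Cd74, and the KO IL4 mean is 11.5% of the WT IL4 mean in Arg1 and 9.98% in Retnla. Ifit1, Ifit2, Isg15 and Irf7 reach their highest values in the KO IL4 libraries.

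Among the genes around STAT6 the feedback inhibitors rose, as did some receptor chains and the kinase gene Jak2. Among 25 genes of IL4 receptor and JAK-STAT6 signalling, 11 rose and 4 fell (median 0.17). Il4ra, the receptor's binding chain, was 1064 ± 86.03 in KO IL4 and 943 ± 10.9 in KO control libraries (log2 0.17, not called), and Jak1 and Stat3 were not called either. Stat6 fell by 0.27 and Il2rg, the shared gamma chain, rose by 1.79. Jak2 rose by 1.73 ± 0.07 (adjusted p = 3.2e-16), with 4371, 3850.0 and 4124 in KO IL4, against 1284, 1147 and 1291 in KO control libraries. The inhibitor genes Cish, Socs1, Socs2 and Socs3 rose by 5.76, 3.89, 3.43 and 2.11, with no called difference from WT. The phosphatase gene Ptpn6 was among the called differences from WT in this list (0.60, upward in KO).

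Of 27 measured transcription regulators linked to alternative activation, 16 rose and 5 fell (median 0.39; Mycn failed the filter), but 3 fell with median centring, with TMM-scaled values, without the mean-variance trend, or without any 1 of KO control replicates 1 and 3 and KO IL4 replicates 2 and 3. Irf4 had 853, 795 and 825 in KO IL4 and 69.2, 80.5 and 77.2 in KO control libraries (3.43 ± 0.20, adjusted p = 8.3e-13). Batf3 rose by 2.46, Tfec by 2.16, Ppargc1b by 1.77 and Klf4 by 0.95. Pparg, the nuclear receptor of lipid metabolism, was not called in KO (log2 0.09). By the test of the difference 5 genes responded less in KO: Myc, Egr2, Nr1h3 (-0.50), Mitf (-0.46) and Bhlhe40 (-0.39). Maf fell by 0.20 in KO and by 1.05 in WT, a called difference of 0.85.

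Most chemokine genes rose, while the lectins and endocytic receptors moved in both directions. Of 22 chemokines 16 rose and 2 fell (median 1.09), and in WT 14 rose and 3 fell (median 1.62). Ccl9 had 32420, 29366 and 30564 in KO IL4 and 5779, 5249.6 and 6300.0 in KO control libraries. Ccl12, a monocyte attractant, averaged 49.6 in KO IL4 and 0.553 in KO control libraries (2 control reads; ratio 97.1, 95% interval 26.5 to 807). Ccl22 rose by 4.42 and Ccl24 by 4.21. By the test of the difference 2 chemokines rose less in KO than in WT: Ccl8 (0.71 in KO and 3.16 in WT) and Pf4 (0.45 in KO and 2.04 in WT). The same test placed 5 higher in KO: Ccl5, Ccl3, Ccl4, Cxcl9 and Cxcl10. Of 24 measured lectins and endocytic receptors 11 rose and 6 fell (median 0.66), and 5 Cd209 genes failed the filter. The scavenger receptor gene Marco had 208 reads in KO IL4 and none in KO control libraries, at least 62.0-fold higher. The lectin gene Clec4e had 5092, 4832 and 4794 with IL4, against 543, 477 and 641, and rose more than in WT by 0.78. Lrp1, an endocytic receptor, fell by 1.11, Stab1 by 1.11 and Cd163 by 2.35.

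Among 19 genes of cell fusion and osteoclast-like differentiation 8 rose and 6 fell (median 0.20), and among 26 matrix and tissue remodelling genes 10 rose and 7 fell (median 0.19). The membrane metalloproteinase gene Mmp14 had 1090.5, 1192 and 1103 in KO IL4 and 40.4, 48.1 and 48.2 in KO control libraries (4.60 ± 0.09, adjusted p = 3.1e-21). Mmp9 rose by 4.29, the phosphatase gene Acp5 by 1.62 and the growth factor gene Igf1 by 1.35. Tgfbi, a matrix protein gene, had 2875, 2877 and 2807 with IL4, against 265, 319.9 and 261, and its rise exceeded that in WT by 1.33 ± 0.12 (adjusted p = 2.8e-08). The growth factor genes Vegfa and Pdgfb fell by 1.23 and 1.64, and the urokinase receptor gene Plaur by 1.42.

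Genes of both enzymes that draw on arginine, arginase and nitric oxide synthase, rose. Of 25 arginine and polyamine genes 12 rose and 7 fell (median 0.58). Nos2, the inducible nitric oxide synthase that competes with arginase for arginine, had 115, 141 and 124 in KO IL4 and 8.58, 6.27 and 7.89 in KO control libraries, against 36.9, 37.2 and 30.1 in WT IL4 and 8.63, 16.8 and 39.1 in WT control libraries. It rose by 3.90 ± 0.27 in KO (adjusted p = 2.5e-11) and by 0.91 ± 0.27 in WT, a called difference of 2.99 ± 0.38 (adjusted p = 7.1e-06). The KO groups were far apart, while the WT control libraries spread widely and overlapped the WT IL4 libraries. The arginine-recycling gene Ass1 rose by 4.41, the mitochondrial arginase gene Arg2 by 2.28 and the polyamine enzyme gene Odc1 by 0.58, while Smox, a spermine oxidase gene, fell by 0.98. Among 17 measured eicosanoid enzymes 8 rose and 4 fell (median 0.25). The cyclooxygenase genes Ptgs1 and Ptgs2 rose by 3.08 and 3.64 and the phospholipase gene Pla2g4a by 2.54. Alox5ap and Alox5, of leukotriene synthesis, fell by 1.47 and 2.07, and the mean of Alox5 was 0.631 in KO IL4 and 5.66 in KO control libraries.

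The type I interferon and antiviral genes rose almost as one block in KO cells given IL4. Of 36 genes 35 rose and 1, the ubiquitin ligase gene Trim25, fell, against 12.6% and 10.5% of all genes tested. The median log2 change was 2.14 in KO and 0.51 in WT, where 25 rose and 4 fell. The difference between the responses was called, always upward in KO, in 35 of 36 genes, against 2.45% of all genes, and had a median of 1.55. Because this list was chosen with earlier results of these data known, the counts describe it and are no independent test. Their summed value ran from 125869 to 133593 in the KO IL4 libraries and from 35067 to 37449 in the KO control libraries.

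Ifi44, an interferon-induced GTP-binding protein gene, had 2901, 2541 and 2591 in KO IL4 libraries, against 94.96, 73.2 and 110.5 in KO control libraries. In WT it had 165, 177 and 160.2 with IL4 and 51.8, 71.6 and 58.6 without. All 3 KO IL4 libraries stood above the 9 libraries of the other 3 groups, and the rise was 4.85 ± 0.12 in KO and 1.46 ± 0.12 in WT (difference 3.39 ± 0.17, adjusted p = 2.1e-12). Ifit2, whose product binds viral RNA complexes, had 19369, 15695 and 17137 in KO IL4 and 1119, 1018 and 1294 in KO control libraries, against 1376, 1452 and 1526 in WT IL4 and 878, 1343 and 816 in WT control libraries. Ifit1, whose promoter is printed above, had 3235, 2959 and 3120.3 in KO IL4 and 241, 237 and 318 in KO control libraries, against 435, 449 and 486 in WT IL4 and 333, 438 and 310.2 in WT control libraries. In both genes the lowest KO IL4 value exceeded the highest value of the other 3 groups. Their rises were 3.93 ± 0.13 and 3.56 ± 0.10 in KO and 0.55 and 0.36 in WT.

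Isg15, a ubiquitin-like modifier, had 1764, 1965 and 1816 in KO IL4 and 155, 151 and 132 in KO control libraries (3.66 ± 0.08 in KO, 1.69 ± 0.08 in WT). The nucleic acid sensor gene Zbp1 had 2889.6, 2901 and 2897 with IL4, against 214, 211 and 222 (3.74 ± 0.07 in KO, 2.10 ± 0.07 in WT), and Irf7, a transcription factor that amplifies interferon production, had 3239.5, 3834 and 3416, against 412, 405 and 385 (3.12 ± 0.11 in KO, 0.96 ± 0.11 in WT). These genes rose in both genotypes, and more in KO. Others moved in opposite directions: Ifit3 rose by 3.19 in KO and fell by 0.54 in WT, Rsad2 (viperin) rose by 2.19 in KO and fell by 0.25 in WT, and Ifitm3 rose by 0.61 in KO and fell by 0.95 in WT. The Mx1 and Mx2 genes, antiviral GTPases, rose by 3.05 and 2.68 in KO and were not called in WT (-0.09 and -0.11).

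Genes of signalling in this pathway rose as well. Stat2, a subunit of the transcription complex that type I interferons activate, had 3992, 3705 and 3922 in KO IL4 and 1151, 1178 and 1175 in KO control libraries, a rise of 1.73 ± 0.06 in KO and 0.51 ± 0.06 in WT (difference adjusted p = 7.0e-10). Irf9, another subunit of that complex, rose by 1.03 in KO. The negative regulator Usp18 rose by 2.33 in KO and 0.92 in WT, and the RNA sensors Ddx58, Dhx58 and Ifih1 by 2.01, 1.83 and 1.43 in KO.

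**Figure D4:**
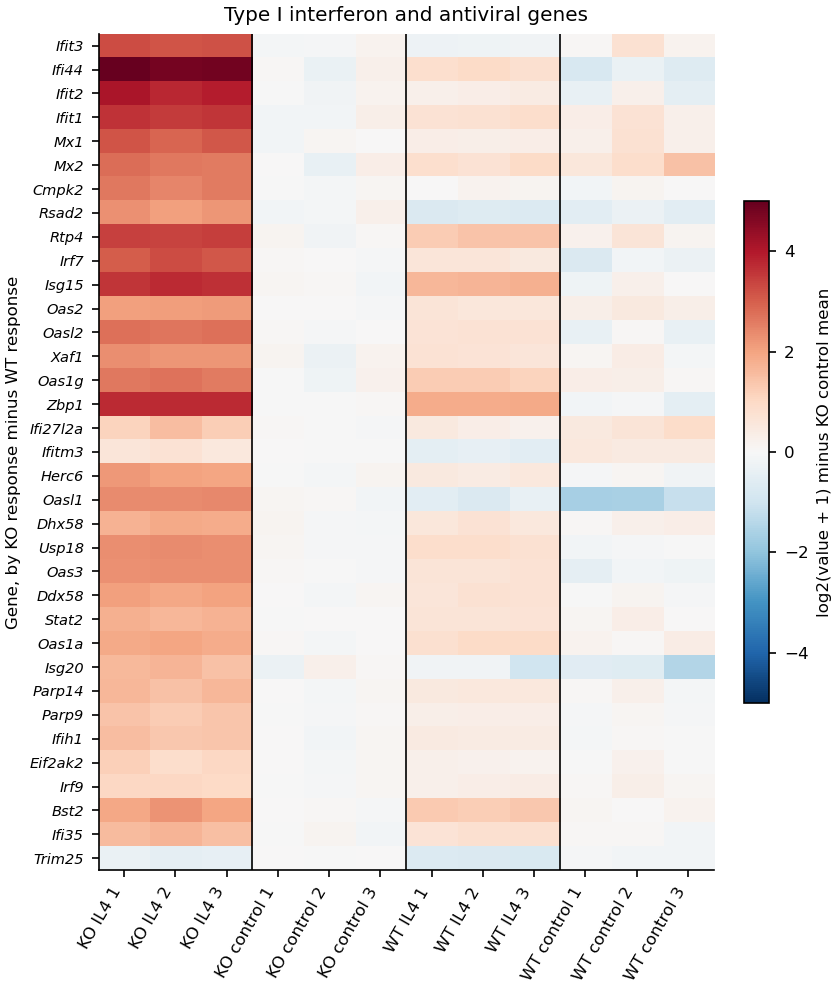
Log2 of the value plus 1, relative to the KO control mean (colour), of 35 of the 36 type I interferon and antiviral genes (rows, ordered by the KO response minus the WT response) in 12 libraries (columns: KO IL4, KO control, WT IL4 and WT control). The 3 KO IL4 columns are red in every row but that of Trim25, up to a mean log2 change of 4.85 for Ifi44, and Trim25 fell by 0.40.

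Interferon transcripts themselves were scarce, in a list chosen after the values were seen. Ifnb1, interferon beta, had 2 reads over the KO IL4 libraries and none over the KO control libraries (mean 0.552 and 0), Ifng averaged 0.414 in KO IL4 and 0.497 in KO control libraries, and 4 Ifna and 2 Ifnl genes failed the filter on low values. The receptor genes Ifnar1, Ifnar2 and Ifngr2 rose by 0.47, 0.46 and 0.57, and the difference from WT was called for Ifnar2 (0.36). Ifit1 and Isg15 had lower means in KO IL4 cells than in KO cells given the other stimuli: Ifit1 averaged 3105 with IL4, against 9258 with IFNg and 231460 with LPS, and Isg15 1848 with IL4, 6003 with IFNg and 46096 with LPS. Il6 and Il12b, cytokine genes at 30559 and 23304 in KO LPS libraries, were at 0.828 and 3.17 in KO IL4 libraries. Tnf, at 140000 in KO LPS libraries, went another way, with a mean of 440 in KO IL4 and 122 in KO control libraries.

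The interferon-gamma and MHC class II list rose too. Of 35 genes 32 rose and 1, Irf8, fell, with a median of 1.87 in KO and 1.05 in WT. The class II genes rose in both genotypes, with no called difference: Cd74, the invariant chain, had 16211, 18878 and 17798 in KO IL4 and 1995, 2384 and 1882 in KO control libraries (3.08 ± 0.08 in KO, 2.95 ± 0.08 in WT, difference 0.13 ± 0.12, adjusted p = 0.82). H2-Ab1, H2-Aa, H2-Eb1 and H2-DMa rose by 3.27, 2.88, 2.68 and 2.77 in KO and by 3.05, 2.71, 2.68 and 2.62 in WT. The difference was called upward in KO for 16 of 35 genes, against 2.45% of all genes tested, among them GTPases of cell-autonomous defence. Gbp2 had 17429, 15180 and 15901 in KO IL4 and 545, 564 and 651 in KO control libraries, with a rise of 4.78 in KO and 3.51 in WT. Gbp5 rose by 4.27 in KO and 1.43 in WT, Gbp7 by 3.39 in KO and 1.19 in WT, Irgm1 by 1.57 in KO and 0.28 in WT and Iigp1 by 2.65 in KO, with no call in WT (-0.51). The class II transactivator gene Ciita rose by 3.60 in KO and 2.70 in WT (difference adjusted p = 7.3e-05). Cxcl10, an interferon-induced chemokine, had 116, 109 and 148 with IL4, against 26.96, 36.6 and 35.95 in KO, and fell by 0.94 in WT.

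**Figure D5:**
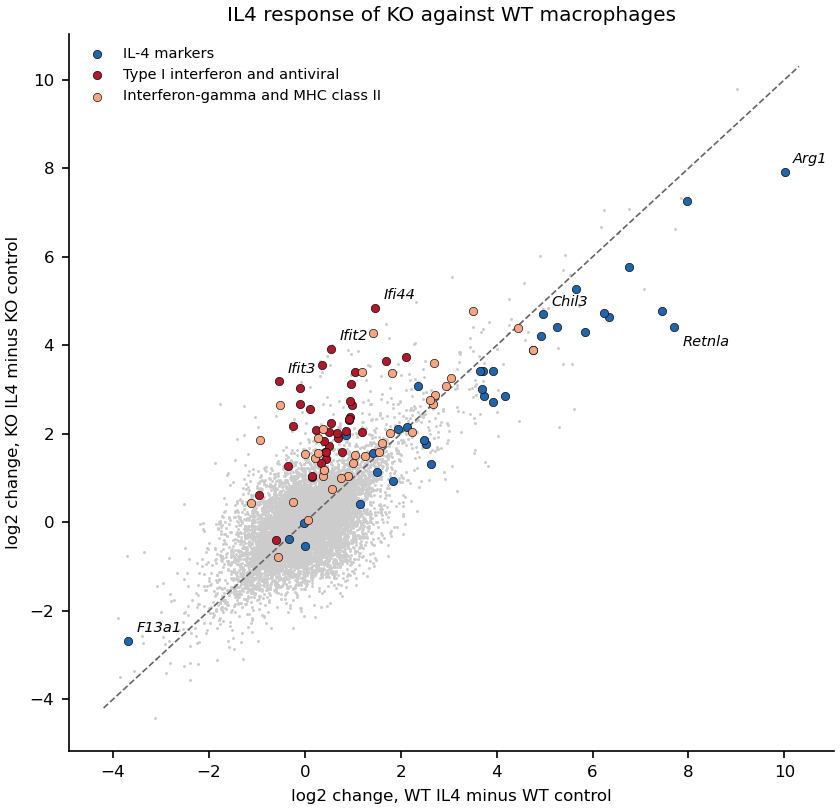
Log2 change with IL4 in KO macrophages (y axis) against that in WT macrophages (x axis) for the 18637 genes tested, with 3 lists coloured and the line of equality dashed. The type I interferon genes lie above the line, 35 of 36 with a called difference, while 8 of 35 alternative activation markers, Retnla among them, have a called difference below it.

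Inflammatory genes rose in part. Of 40 cytokine and NF-kB target genes 25 rose and 5 fell (median 0.69 in KO and 0.19 in WT). The difference was called upward in KO in 17 and downward in none, against 2.45% and 1.15% of all genes tested. Tlr2, a receptor for bacterial lipoproteins, had 2397, 2368 and 2397 in KO IL4 and 953, 892 and 939 in KO control libraries, against 1405, 1412 and 1406 in WT IL4 and 1421, 1369.8 and 1246 in WT control libraries. It rose by 1.36 ± 0.05 in KO and was not called in WT (0.07; difference adjusted p = 1.3e-11). Tnf had 420.2, 440.4 and 459 with IL4, against 117, 106 and 142 without, and rose by 1.86 in KO and 0.67 in WT. The costimulator gene Cd86 rose by 2.15 in KO and 0.70 in WT, the adhesion gene Icam1 by 2.59 in KO and 1.84 in WT and Cd40 by 3.14 in KO and 2.35 in WT, each with a called difference. The inhibitor Nfkbia rose by 1.50. Cd14 and Ccl3 fell by 1.12 and 0.67, and Il6, Il10, Il12b, Il23a, Csf2 and Csf3 had means under 4 in both KO groups.

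Metabolic lists moved by smaller steps. Of 36 oxidative phosphorylation genes 21 rose and none fell (median 0.31; 0.42 in WT), led by the cytochrome oxidase gene Cox5a, which had 2010.1, 2066 and 1769 in KO IL4 and 989, 984 and 1069 in KO control libraries (0.94 ± 0.14). Of 27 citric acid cycle and itaconate genes 14 rose and 1 fell (median 0.27), with Idh3a at 0.71, and of 22 fatty acid oxidation genes 9 rose and 3 fell (median 0.10), or 1 fell without KO control replicate 1, KO control replicate 2 or KO IL4 replicate 1. No difference from WT was called in the first 2 of these lists, and 1, Acsl1 (0.32), in the third. Of 24 measured cholesterol synthesis genes 16 rose and none fell (median 0.46), for instance Hsd17b7 (1.09), Fdps (1.02), Dhcr7 (0.96) and Nsdhl (0.83). In WT 8 of them rose (median 0.26), and no difference was called. The PPARg, LXR and lipid handling list went the other way, with 4 of 30 higher and 12 lower (median -0.14), and in WT 7 higher and 11 lower (median -0.15). In KO, Apoe had 42653, 56900 and 55201 with IL4, against 94362, 107200 and 89418 (-0.92), Pltp changed by -1.11, Apoc2 by -1.76 and the lipid droplet gene Plin2 by -0.70. Of 36 HIF-1 and glycolysis genes 8 rose and 11 fell (median -0.05). Hk2 and P4ha1 rose by 0.74 and 0.65, and Ankrd37, Egln3 and Vegfa fell by 2.61, 1.36 and 1.23.

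In the endoplasmic reticulum, 19 of 27 unfolded protein response genes rose and 3 fell (median 0.45), and in WT 16 rose and 3 fell (median 0.29). Among those that rose in KO were the protein disulfide isomerase gene Pdia4 (5235, 4835 and 4924 in KO IL4, against 1759, 1986 and 1829 in KO control libraries, 1.43 ± 0.08) and the chaperone genes Hsp90b1 (0.82) and Calr (0.75). Asns, asparagine synthetase, rose by 1.44 in KO and 0.41 in WT, a called difference. Of 32 lysosome and autophagy genes 8 rose and 10 fell (median -0.01), with Ctsz at 0.90 and Sqstm1 at -0.51. Of 25 NRF2 and antioxidant genes 8 rose and 5 fell (median 0.08). The cystine transporter gene Slc7a11 rose by 2.10, the mitochondrial Sod2 by 2.05, and the iron exporter gene Slc40a1 fell by 2.25. Most of the cell cycle list did not pass: 5 of 36 genes rose and 4 fell (median 0.05), against 12.6% and 10.5% of all genes tested. The proliferation marker Mki67 had 216, 176 and 220.4 in KO IL4 and 92.5, 92.01 and 110.5 in KO control libraries, and Cdkn1a and Ccnd2 rose by 1.18 and 1.37. Of 21 immediate early genes 4 rose and 6 fell (median -0.21), led by Ier3 (3.86). Of 29 macrophage identity genes 13 rose and 8 fell (median 0.14).

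Of 15 measured genes of the CITED family and its partners 4 rose and 5 fell (median 0.09), and Cited1 failed the filter. Without KO control replicate 2, 3 fell, and with the compared libraries alone 2 rose and 3 fell. Crebbp, which encodes CBP, was 1283 ± 99.1 in KO IL4 and 1372 ± 51.2 in KO control libraries (log2 -0.10, not called). Ep300, which encodes p300, changed by -0.24 and Hif1a by 0.30, both called. Smad3, a transducer of TGF-beta signals, fell by 0.59, and Lhx2, a homeobox gene known to bind CITED2, rose by 1.44 at a mean of 10.2 in KO IL4 and 3.15 in KO control libraries.

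The 6 largest upward differences of the KO response from the WT response were in I830012O16Rik, Gm14446, Ifit3, Ms4a4c, Ly6a and Ifi44. I830012O16Rik (chromosome 19, 34607970 to 34613401) had 135, 91.1 and 118 in KO IL4 and 15.3, 15.7 and 20.2 in KO control libraries, against 9.22, 13.2 and 13.2 in WT IL4 and 24.3, 57.4 and 53.7 in WT control libraries. It rose in KO and fell in WT. Its response differed by 4.44 ± 0.32 and Gm14446 (34592891 to 34601956) by 3.91 ± 0.27. Both lie between Ifit3 and Ifit1, among related genes, so the split of reads between them and their neighbours is uncertain. Ms4a4c, of the membrane-spanning 4A family, had 501, 446 and 417 in KO IL4 and 22.1, 27.2 and 33.3 in KO control libraries, against 44.4, 43.5 and 40.5 in WT IL4 and 25.3, 33.5 and 26.9 in WT control libraries. Ly6a, the surface protein Sca-1, had 298, 234 and 189.6 in KO IL4 and 43.5, 50.2 and 40.3 in KO control libraries, against 34.01, 32.04 and 33.9 in WT IL4 and 85.2, 87.1 and 43.96 in WT control libraries. In both genes all 3 KO IL4 libraries stood above the libraries of the other 3 groups.

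Beside Retnla, the largest downward differences were in Cldn11, Rnase2a, Ccl8, Itgb8 and Nes. Cldn11, a tight junction claudin gene, had 16.5, 20.2 and 9.58 in KO IL4 and 2.45, 1.05 and 1.75 in KO control libraries, against 78.4, 91.5 and 87.6 in WT IL4 and 0, 0.645 and 2.44 in WT control libraries (difference -3.05 ± 0.62, adjusted p = 0.0035). Ccl8 had 487, 404 and 359.9 in KO IL4 and 267, 251 and 242 in KO control libraries, against 420.2, 399 and 365 in WT IL4 and 49.6, 38.7 and 41.5 in WT control libraries (difference -2.46 ± 0.16, adjusted p = 1.8e-10). Both rose with IL4 in KO, by less than in WT. The IL4 libraries of the genotypes overlapped for Ccl8, and its KO control libraries lay above the WT ones. The ribonuclease gene Rnase2a had no read in either control group and 34.9, 27.97 and 19.2 in KO IL4, against 141, 205 and 179 in WT IL4 libraries, at least 35.8-fold higher in KO IL4 than in KO control. It has close copies, and edgeR gave its difference an adjusted p of 0.9999. The integrin gene Itgb8 rose by 0.97 in KO and 2.93 in WT. Nes, an intermediate filament gene, fell by 2.37 in KO, where it had 111, 99.5 and 96.9 with IL4 and 513, 538 and 551 without, and by 0.71 in WT.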

How the data were processed

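RNA was sequenced from mouse BMDMs in 24 libraries, 3 in each of 8 groups. The deposited table holds a normalised signal: the authors scaled the read count of each gene by 1 factor per library, as read from the values, 100% of which were whole reads within a tolerance of 0.05 reads. Per the submitters' processing notes the reads were processed with TopHat2 2.2.1, Cufflinks 2.2.1 and Cuffdiff on mm10 (GRCm38). The counting tool, annotation and strand setting are not given in the sources used here. No column belonged to a sample outside the labels.

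Log2 of the value plus 1 was fitted with limma 3.58.1 (R 4.3.3, mean-variance trend) over all 24 libraries, with 1 mean per group, for 18637 genes (minimum 1 in 3 libraries). SE is that of the fit, log2 changes of genes at low values are understated by the added 1, and a call is a Benjamini-Hochberg adjusted p below 0.05 over all these genes. edgeR 4.0.16 and DESeq2 1.42.0 on the recovered reads were alternatives, with others of scaling, filter, pseudocount and libraries. Intervals and floors reflect counting error alone.

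The members and gene lists were chosen with earlier results of these data known. Genes named by rule were Cited2, the 4 markers Arg1, Retnla, Chil3 and Mrc1, the 12 largest rises and falls among called, protein-coding genes without overlap and with a mean of at least 50 in the higher group, up to 4 genes with the smallest p in each list, and the 6 largest called differences of either sign with a mean of at least 50. Other members of the lists were named after their values were seen, and some genes are not reported here by name, though the counts over lists include them. Positions come from the mouse annotation of GRCm38 and promoters from RefSeq. Older symbols are those of the table (Emr1 is Adgre1, Irg1 is Acod1). Of the IL-4 list, Ear11 was not analysed here. Genes with close copies (Ifit3, Chil3, Oas1a, Apol7c, Rnase2a) may share reads, and genes that overlap on opposite strands cannot be told apart.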

Additional observations from a re-analysis of the deposited data

Results flagged for a closer look

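The IL4 responses of KO and WT macrophages differed by the test of the interaction (limma, adjusted p below 0.05) in the genes listed here, all of them named by rule. The values are the log2 change with IL4 in KO minus that in WT, each group with 3 libraries, and no explanation was tested. Each value depends on the control libraries as well as on the IL4 libraries. Clec4a1 averaged 3074 in KO IL4 and 2982 in WT IL4 libraries, but 551 in KO control and 1308 in WT control libraries. Fcgr2b and Bhlhe40 had downward differences, though their means were higher in KO IL4 than in WT IL4 libraries (22496 and 16836, 7006 and 6600). For Fpr2 the IL4 means were 119 in KO and 39.7 in WT.

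Interferon-inducible genes and their regulators rose more in KO: I830012O16Rik (4.44), Gm14446 (3.91), Ifit3 (3.73), Ms4a4c (3.44), Ly6a (3.41), Ifi44 (3.39), Isg15 (1.97), Zbp1 (1.64), Usp18 (1.41), Stat2 (1.22), Gbp3 (1.54), Gbp2 (1.27) and Ciita (0.90). Inflammatory and receptor genes were also shifted upward in KO: Nos2 (2.99), Fpr2 (2.47), Tlr2 (1.30), Clec4a1 (1.29), Ccl5 (0.83), Clec5a (0.83), Clec4e (0.78), Icam1 (0.75), Ptgs1 (0.72), Lyz2 (0.55), Nfkbia (0.33) and C3 (0.33). Further upward differences were those of Ighm (2.95), Ccnd2 (1.57), Tgfbi (1.33), Asns (1.03), Mki67 (0.60), Sod2 (0.57), Cdkn1a (0.34), Acsl1 (0.32) and Npc2 (0.32). For Ighm this was a smaller fall in KO than in WT, and the B cell marker sums are given in the report.

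Downward differences among alternative activation genes and genes of varied function were those of Retnla (-3.29), Cldn11 (-3.05), Rnase2a (-2.66), Ccl8 (-2.46), Itgb8 (-1.96), Egr2 (-0.92), Gatm (-0.78), Fn1 (-0.75), Itgax (-0.66), Fcgr2b (-0.55), Siglecf (-0.52), Bhlhe40 (-0.39) and Tbxas1 (-0.30). Genes that fell in KO and had downward differences were Nes (-1.66), Ltf (-1.36), S100a9 (-1.15), Pcp4l1 (-0.53) and Plin2 (-0.32), and Ltf and S100a9 are neutrophil markers whose part was not tested.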

How the results depend on the processing

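No named gene that was called changed direction under any alternative run, and of those not called Ccr7 (-0.03; -0.47 to 0.35) and Cpa3 (-0.26; up to 0.37) did. Of the named genes, Cited2 (adjusted p up to 0.11), Dcn and Vcan lost their call in KO in 3 to 4 of 18 alternatives, and 9 markers of other cell types gained one in 1 to 6: Zbtb46, Clec9a, Cd8a, Nkg7 and Lum upward and Prg2, Ly6c2, Mcpt8 and Klf1 downward. Library weights gave 3611 genes higher and 3445 lower in KO, 3174 lower in WT, and 1346 upward and 992 downward differences, 15 of the downward ones among the IL-4 markers. An absolute log2 change of at least 1 left 696 higher and 404 lower in KO, 592 higher and 394 lower in WT with 5 type I interferon genes higher, and 146 upward and 26 downward differences, 4 of the downward ones among IL-4 markers. Downward differences numbered 345 with only the compared libraries, 410 with edgeR and 459 with DESeq2, which gave 710 upward ones. For KO, edgeR called 3171 higher and 2623 lower, DESeq2 2905 and 2666, and the fit without KO LPS replicate 1 2834 and 2567. Leaving out 1 library gave 1925 to 2234 higher and 1535 to 1797 lower in KO, 1652 to 1757 and 1443 to 1568 in WT, and 368 to 483 upward and 146 to 234 downward differences. In KO the IL-4 markers stayed at 30 higher, type I interferon genes at 35 and IFNg genes at 32; in WT they were 30 to 31, 23 to 27 and 24 to 26. The differences were 6 to 9 downward for IL-4 markers and 34 to 35 and 14 to 16 upward for the interferon lists. The replicate block gave 2293 higher and 1913 lower in KO and changed no call of a named gene. Between libraries of the same number, the correlations of deviations were 0.034, 0.503 and -0.17 in KO and -0.039, 0.114 and 0.099 in WT. With 3 libraries per group these cannot settle whether the numbers pair the samples, which the labels do not state. Across numbers KO IL4 replicate 1 had correlations of 0.534 with KO control replicate 3 and -0.559 with KO control replicate 2. Variation shared in that way was not modelled. Among citric acid cycle genes edgeR and the compared libraries alone called 2 lower, and DESeq2 and the fit without KO LPS replicate 1 called 3. Among IL-4 markers edgeR, DESeq2 and the fit without KO LPS replicate 1 called 2 lower. Among lysosome genes the compared libraries alone called 5 lower. The cause of these shifts was not tested. Genes under a few reads per library are limited by depth.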

Other observations

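Some members of the lists lay outside the pattern of their group. Fcgr1, the high-affinity IgG receptor gene, rose by 0.43 in KO and fell by 1.12 in WT, with 2601, 2274 and 2254 in KO IL4 and 1719.7, 1750.2 and 1814 in KO control libraries. The endocytic receptor gene Siglec1 rose by 1.04 in KO and was not called in WT (0.21). The inflammasome genes Casp1, Casp4 and Nlrp3 rose by 0.78, 1.30 and 0.68 in KO, each with a called difference from WT. Nfkbiz, a nuclear inhibitor of the NF-kB family, rose by 0.25 in KO and fell by 0.83 in WT.

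Pdgfb and Pdgfa, growth factor genes, fell by 1.64 and 0.24 in KO, against a fall of 0.72 and a rise of 0.32 in WT, with called differences of -0.92 and -0.55. The hypoxia factor gene Epas1 fell by 0.24 in KO and rose by 0.27 in WT, and the glucose transporter gene Slc2a1 was not called in KO (-0.01) and rose by 0.51 in WT. The lipase gene Lpl was not called in KO (-0.02) and rose by 0.56 in WT (difference -0.58). The immediate early genes Jund and Fosl2 had differences of -0.66 and -0.71.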
